A study of Mus musculus with 75 samples.

Results

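Chromatin regions open only at the last passage of mouse skin fibroblasts in culture were described, together with their sequence and the RNA of the genes near them. Skin fibroblasts of 2-month-old female C57BL/6 mice, untreated, were passaged to replicative senescence, and open chromatin was measured by ATAC-seq at passage 1 (P1, 4 samples) and at passages 3, 5 and 7 (P3, P5 and P7, 3 samples each). The peaks of all 13 samples on chromosomes 1 to 19 and X were merged into 306843 union regions. A region was kept as P7-only when it overlapped no peak in any of the 10 samples of P1, P3 and P5 and overlapped a peak in at least 2 of the 3 P7 samples, which left 8582 regions. They were thus chosen by the presence of peaks in all 13 ATAC-seq samples, and peak presence and strength are given below as a description, with no test. RNA-seq of the same passages had 4 libraries each, with total counts between 13430229 and 15725823. The labels do not say whether replicates of a passage came from separate mice or cultures, so p-values measure the spread between these samples.

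ATAC-seq uses a transposase that cuts DNA where nucleosomes leave it accessible, and peaks away from promoters often mark enhancers. AP-1, a dimer of FOS, JUN, ATF or MAF family proteins, binds many enhancers of fibroblasts, and TEAD proteins bind DNA as the partners of YAP and TAZ in Hippo signalling. Both families are known for a role in the enhancers of senescent and of stressed or stretched fibroblasts. Senescent cells stop dividing through inhibitors of cyclin-dependent kinases such as those of the Cdkn2a locus, and secrete cytokines, growth factors and proteases.

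The strongest of the P7-only regions are shown first, as examples of the upper end of a class of mostly weak peaks. The 12 regions present in all 3 P7 samples and ranked highest in the sample where they were weakest were taken. Of these 12, 5 held the AP-1 sequence TGACTCA within 100 bases of the summit, against 22.5% of all 8582 P7-only regions. The 5 with AP-1 and the region ranked highest of all were picked for print, and are not typical of the 12. Their DNA is printed here, 5′ to 3′ on the plus strand of GRCm38 (mm10), 100 bases on each side of the summit of the P7 peak. Capitals mark matches to the 19 motifs searched on both strands, so an AP-1 match on the minus strand reads TGAGTCA, and a TEAD match (CATTCC) reads GGAATG.
chr17:55850641-55850841, in an intron, 28212 bases from the Zfp119a start site, with TEAD and AP-1 overlapping in 1 run of capitals: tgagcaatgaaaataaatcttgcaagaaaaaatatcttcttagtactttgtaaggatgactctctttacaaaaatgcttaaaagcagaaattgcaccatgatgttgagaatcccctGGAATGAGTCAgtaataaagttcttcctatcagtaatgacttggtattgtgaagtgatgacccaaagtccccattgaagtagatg
chr11:87587337-87587537, in an intron, 4729 bases from the Mtmr4 start site, with TEAD and AP-1: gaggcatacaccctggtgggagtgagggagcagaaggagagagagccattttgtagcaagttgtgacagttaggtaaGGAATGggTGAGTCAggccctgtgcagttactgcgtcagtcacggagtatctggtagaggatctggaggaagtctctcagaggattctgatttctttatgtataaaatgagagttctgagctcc
chr7:74558636-74558836, intergenic, 3956 bases from the Slco3a1 start site, with AP-1 and STAT (TTCNNNGAA): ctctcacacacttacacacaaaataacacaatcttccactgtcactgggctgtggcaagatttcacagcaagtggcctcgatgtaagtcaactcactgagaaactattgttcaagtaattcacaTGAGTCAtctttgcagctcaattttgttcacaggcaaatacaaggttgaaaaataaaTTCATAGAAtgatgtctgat
chr2:80464108-80464308, intergenic, 16812 bases from the Frzb start site, with AP-1: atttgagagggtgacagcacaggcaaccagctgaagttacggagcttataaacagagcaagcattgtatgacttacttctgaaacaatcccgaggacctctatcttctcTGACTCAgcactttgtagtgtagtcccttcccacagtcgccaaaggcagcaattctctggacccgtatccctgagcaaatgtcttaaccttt
chr15:24280614-24280814, intergenic, with AP-1 and STAT: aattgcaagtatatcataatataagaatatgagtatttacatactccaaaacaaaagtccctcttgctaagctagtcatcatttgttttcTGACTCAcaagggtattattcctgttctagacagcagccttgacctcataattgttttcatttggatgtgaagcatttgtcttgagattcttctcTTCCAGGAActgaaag
chr10:43730609-43730809, intergenic, 15449 bases from the 1700027J07Rik start site, with no match to any of the 19 motifs: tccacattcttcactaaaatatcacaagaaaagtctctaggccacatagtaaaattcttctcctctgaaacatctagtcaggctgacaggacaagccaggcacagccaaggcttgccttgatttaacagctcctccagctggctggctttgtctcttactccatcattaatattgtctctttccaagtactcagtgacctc
The last of these ranked highest of all 8582 in its weakest sample, and its peak stood 7.65-fold, 9.09-fold and 11.8-fold over background in P7 replicates 1, 2 and 3. The region near Zfp119a, a gene of the zinc finger family, stood 7.65-fold, 8.31-fold and 7.72-fold over background. The region near Frzb, which encodes a secreted Wnt antagonist, stood at 5.67-fold, 6.27-fold and 8.60-fold.  Of the other 6 of the 12, the regions nearest to Nnt, Adam7, Herc1 and Zfp462 held the CEBP sequence (TTGCNNAA). The NFY sequence (CCAAT) was in an intronic region of Ppp4r3b and in the regions nearest to Herc1 and Zfp462. The region nearest to Ankrd10 held no match. TEAD was in 2 of the 12, the printed regions near Zfp119a and Mtmr4.

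The second set of sequences lies near genes whose RNA was higher at P7 than at P5, which are described further on. They are shown so that the motif content of regions near senescence genes can be read beside that of the strongest regions.
chr4:89250514-89250714, intergenic, 31578 bases from a start site of Cdkn2a, with STAT: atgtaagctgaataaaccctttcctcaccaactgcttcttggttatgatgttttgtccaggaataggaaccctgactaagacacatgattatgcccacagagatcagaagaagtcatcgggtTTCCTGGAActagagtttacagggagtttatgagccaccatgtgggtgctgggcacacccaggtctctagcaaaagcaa
chr1:150104394-150104594, in a coding exon of Ptgs2, 4463 bases from its start site, with AP-1: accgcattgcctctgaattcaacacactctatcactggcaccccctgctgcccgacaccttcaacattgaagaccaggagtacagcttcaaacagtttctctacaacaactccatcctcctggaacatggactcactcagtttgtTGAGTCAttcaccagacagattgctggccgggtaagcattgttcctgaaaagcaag
chr5:91094600-91094800, intergenic, 20083 bases from the Ereg start site, with NFY, RUNX (TGTGGTT) and TEAD: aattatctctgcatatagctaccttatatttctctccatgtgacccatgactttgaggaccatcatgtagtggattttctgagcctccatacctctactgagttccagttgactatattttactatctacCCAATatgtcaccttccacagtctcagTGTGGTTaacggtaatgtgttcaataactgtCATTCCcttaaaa
chr19:36143734-36143934, intergenic, 23990 bases from the Ankrd1 start site, with homeobox (TAATTA) and CEBP: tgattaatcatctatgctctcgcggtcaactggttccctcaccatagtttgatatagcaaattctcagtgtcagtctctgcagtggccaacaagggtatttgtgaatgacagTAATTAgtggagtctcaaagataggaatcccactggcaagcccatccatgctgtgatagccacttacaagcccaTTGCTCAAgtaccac
chr16:14275353-14275553, in an intron of Myh11, 15955 bases from a start site, with STAT: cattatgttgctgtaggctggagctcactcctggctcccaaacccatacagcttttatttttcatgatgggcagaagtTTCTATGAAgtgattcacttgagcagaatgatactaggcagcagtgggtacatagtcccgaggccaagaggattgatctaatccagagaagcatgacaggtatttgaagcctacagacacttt
Only the region in Ptgs2 held AP-1 among these 5, and only the region near Ereg held TEAD. A match is a run of letters and does not show that the factor was bound.

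Most of the P7-only regions were weak peaks. The median fold enrichment of their peaks was 2.92, 3.38 and 3.35 in P7 replicates 1, 2 and 3, against 5.03, 5.49 and 5.38 over all peaks of the same samples. When the peaks of a sample were ranked by -log10 p, the median P7-only peak lay at percentile 15.2, 19.5 and 20.2. Peaks above the median of their own sample were rare among them, at 50 of 4728, 254 of 7516 and 229 of 6939, and the highest percentile reached was 71.8, 71.6 and 79.9. The regions were also short, with a median of 286 bases against 423 over all union regions. They made up 2.36%, 3.25% and 3.14% of all peaks of the 3 samples.

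**Figure D1:**
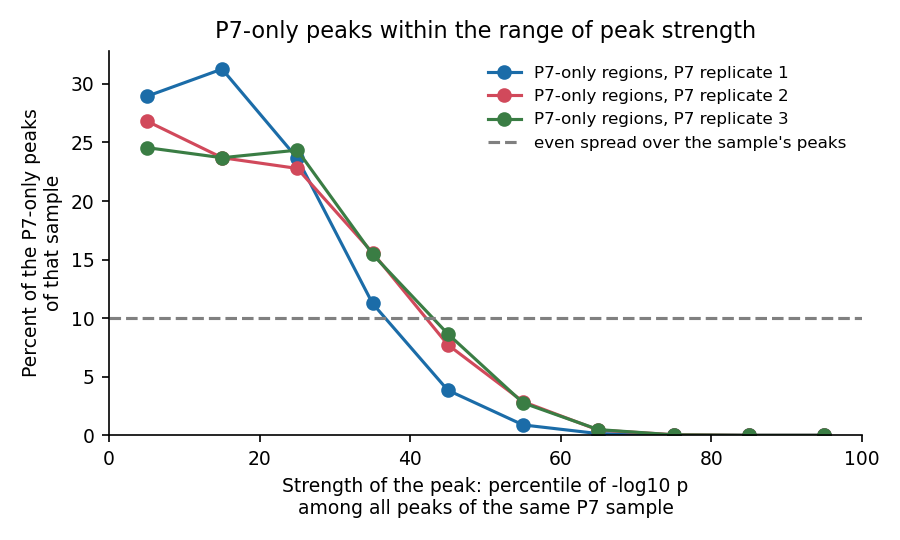
Percent of the P7-only peaks of each P7 replicate (y axis) in bins of 10 percentiles of peak strength (x axis, rank of -log10 p among all peaks of that sample); the dashed line is an even spread. The curves of all 3 replicates are highest below percentile 30 and close to 0 above percentile 60.

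Whether a region counted as P7-only depended on how many peaks each sample had. The 3 P7 samples had the most peaks, between 200363 and 231548, against 142372 to 155668 at P3, 168970 to 186552 at P1 and 182390 to 207956 at P5. With the 142372 highest-ranked peaks of every sample, 2498 regions were P7-only, and 610 of the 8582 regions (7.11%) were among those. Only 1994 of the 8582 were present in all 3 P7 samples. The other 6588 were in 2 samples, and of these 3856 were shared by replicates 2 and 3, 1653 by replicates 1 and 2 and 1079 by replicates 1 and 3. Replicate 1, which had the fewest peaks of the 3, was thus the one most often missing. Without replicate 2 or 3, with the other pair required, 3072 and 3647 regions met the rule, and without replicate 1, 5888. How deeply each ATAC-seq sample was sequenced cannot be read from peak lists, which hold no read counts.

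Other patterns of opening were counted by the same rule for comparison. There were 2631 regions open only at P1 (in at least 3 of its 4 samples), 327 only at P3, 2025 only at P5 (each in at least 2 of 3 samples) and 7598 absent at P1 and P3 and present in at least 2 samples of both P5 and P7, called here opened by P5 and kept. P7-only was the largest of these 5 classes with all listed peaks. With equal numbers of peaks, P1-only was larger, with 3380 regions against 2498, and P3-only rose to 1826. With peaks of -log10 q of at least 5, the class opened by P5 and kept was the largest, with 8745 regions against 8165 P7-only regions. Sample numbers and peak numbers differ between the passages, and the part of either in these counts was not tested.

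**Figure D2:**
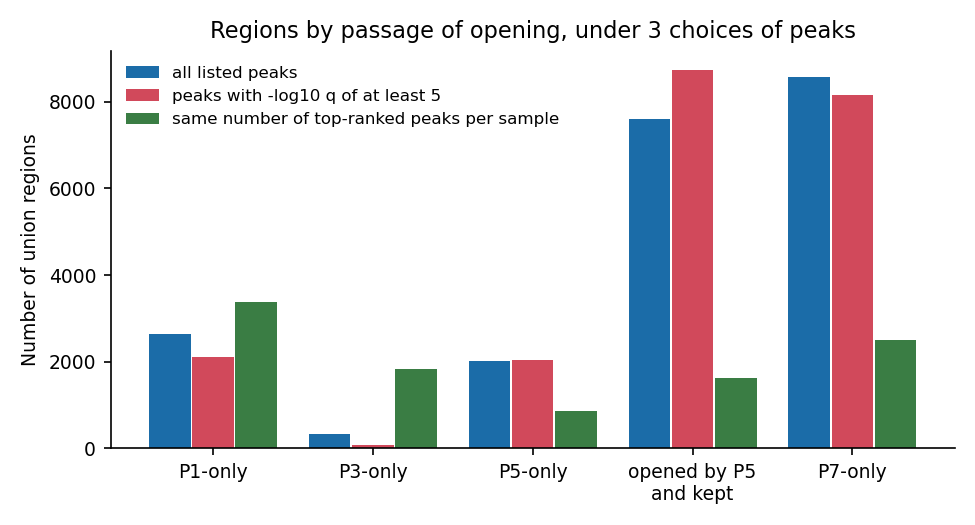
Number of union regions (y axis) in 5 classes by the passages where they were open, with all listed peaks (blue), peaks with -log10 q of at least 5 (red) and the same number of highest-ranked peaks from every sample (green). P7-only falls from 8582 to 2498 with equal numbers of peaks, while P1-only rises from 2631 to 3380.

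The threshold of the rule ran through a continuum. Absent before P7 and present in only 1 P7 sample were 23604 regions, with a median fold enrichment of 2.88, and present in 2 and in 3 P7 samples were regions with medians of 3.23 and 3.45. Just outside on the other side, 8895 regions were present in at least 2 P7 samples and in 1 of the 10 earlier samples, with a median of 3.42. That earlier sample was of P5 for 6310 regions, of P1 for 1803 and of P3 for 782. The median gap from a P7-only region to the nearest earlier peak was 2571 bases, and 1127 regions (13.1%) had one within 500 bases. The nearest other P7-only summit was farther, at a median of 76979 bases.

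P7-only regions lay away from promoters. Within 1000 bases of a transcription start site were 118 of the 8582 (1.37%), against 6.40% of all union regions, 4.83% of P1-only regions and 14.4% of regions open in every sample. The shares of regions opened by P5 and kept (1.15%) and of P5-only regions (1.58%) were also low. Introns held 47.5% of the P7-only regions and intergenic sequence 48.4%, and the median distance to a start site was 37078 bases against 30970 over all union regions. Among peaks of P7 samples in the lowest 20 percentiles of strength, 1.31% ± 0.156 (SD, n = 3 P7 samples) of P7-only peaks and 6.59% ± 0.630 of the other peaks were within 1000 bases of a start site. Weak regions just outside the rule had low shares too, with 1.83% of regions found in 1 P7 sample and no earlier one and 1.63% of regions found in 1 earlier sample. The GC content within 100 bases of the summit had a median of 44.3% in P7-only regions and 46.8% in all union regions.

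The regions were spread over the genome. Of 2645 windows of 1 Mb, 2243 held at least 1, with a median of 3 and a maximum of 15 per window. The densest windows included chromosome 1 from 72 to 73 Mb with Igfbp2 and Igfbp5, which encode binding proteins of insulin-like growth factors. Chromosome 12 from 3 to 4 Mb, with the DNA methyltransferase gene Dnmt3a, and chromosome 6 from 33 to 34 Mb, with the exocyst gene Exoc4, also held 15 each. The X chromosome held 320 P7-only regions, which is 3.83 per 100 union regions, against 2.77 on the autosomes, and its peaks as a whole took 2.69% to 2.71% of the regions present in the P7 samples against 2.42% to 2.48% in the P1 samples. Per 100 union regions, those opened by P5 and kept were likewise more frequent on X (3.09 against 2.46), and P1-only regions less frequent (0.491 against 0.868). Per Mb of sequence, X held the fewest P7-only regions, with 1.87. The autosomes held from 2.66 per Mb (chromosome 17) to 4.02 per Mb (chromosome 11).

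The AP-1 sequence was found in 1931 P7-only regions (22.5%), close to its share over all union regions (22.1%). It was more frequent than in regions opened by P5 and kept (16.7%), P5-only (10.5%) and P3-only regions (11.6%), near the share of P1-only regions (21.4%), and less frequent than in regions open in every sample (27.6%). In the 3 P7 samples the share was 22.2% ± 1.35 of P7-only regions (SD, n = 3) against 23.9% ± 0.122 of all peaks. The rule puts each P7-only region in at least 2 of these samples. The SDs given for P7-only regions and peaks are therefore not spreads between independent sets. Outside promoters, AP-1 was in 22.6% of P7-only regions and in 23.1% of all union regions. Regions present in all 3 P7 samples had AP-1 in 24.4%, those in 2 samples in 21.9%, and those in 1 sample, which the rule leaves out, in 18.2%. Where the only earlier sample with a peak was of P1, AP-1 was in 29.1% of the regions, and where it was of P5, in 19.6%. No test was made of these differences, since regions of 1 set of samples are not replicates.

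Peak strength moved with the AP-1 share. In the lowest 20 percentiles of strength, 19.6% ± 1.09 of P7-only peaks held AP-1, against 16.3% ± 0.259 of the other peaks of the same P7 samples (SD, n = 3). From percentile 20 to 40 the shares were 24.9% ± 0.834 and 21.3% ± 0.412. P7-only peaks had the higher share in both of these bins, which held most of them. From percentile 40 to 60 the values were 25.4% ± 3.83 and 23.2% ± 0.0982, within the SD of the P7-only peaks. With equal numbers of peaks per sample, AP-1 was in 27.0% of the 2498 P7-only regions. It was in 24.4% of all union regions and in 26.9% of P1-only regions, so P7-only and P1-only stayed close. The gap to all regions was wider than with all listed peaks, but it was measured on a largely different set. Only 610 of the 2498 were P7-only with all listed peaks too, and AP-1 was in 28.9% of these.

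The TEAD sequence was in 1720 P7-only regions (20.04%), against 19.6% of all union regions. It was less frequent than in regions opened by P5 and kept (25.7%) and in P5-only regions (26.9%), and more frequent than in P1-only regions (12.1%). The share was 20.01% ± 0.278 over the P7-only regions of the 3 P7 samples (SD, n = 3). At the same strength it was 19.6% ± 0.591 in P7-only peaks and 18.4% ± 0.102 in other peaks of the lowest bin, and 20.3% ± 0.548 against 19.5% ± 0.0648 in the next. Outside promoters, TEAD was in 20.1% of P7-only regions and in 20.2% of all union regions. AP-1 and TEAD together were in 288 P7-only regions (3.36%), against 3.69% of all union regions.

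**Figure D3:**
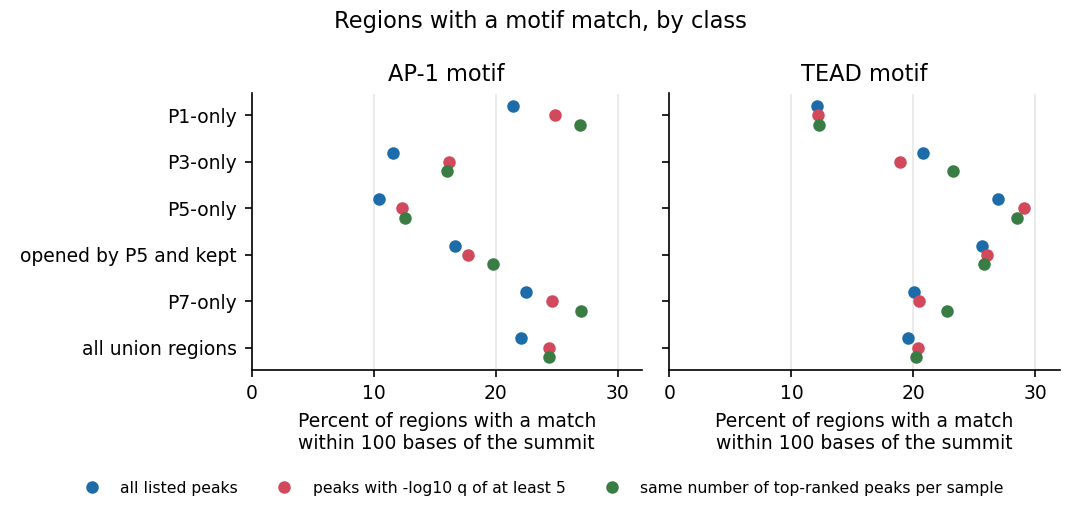
Percent of regions with an AP-1 match (left) or a TEAD match (right) within 100 bases of the summit (x axis), for classes of regions by passage of opening (rows) and 3 choices of peaks (colours). P7-only regions have more AP-1 and less TEAD than regions opened by P5 and kept under all 3 choices, with 22.5% against 16.7% and 20.04% against 25.7% when all listed peaks are used.

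Both sequences were concentrated at the summits. Within 20 bases of the summit, AP-1 matches were 16.3 times as dense in P7-only regions as from 100 to 200 bases away, against 14.8 times in all union regions and 13.02 times in regions opened by P5 and kept. TEAD matches were 2.81 times as dense, against 2.64 and 3.95 times. Around the summit, AP-1 was therefore distributed in P7-only regions much as in all regions, and TEAD was less concentrated than in the regions opened by P5.

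**Figure D4:**
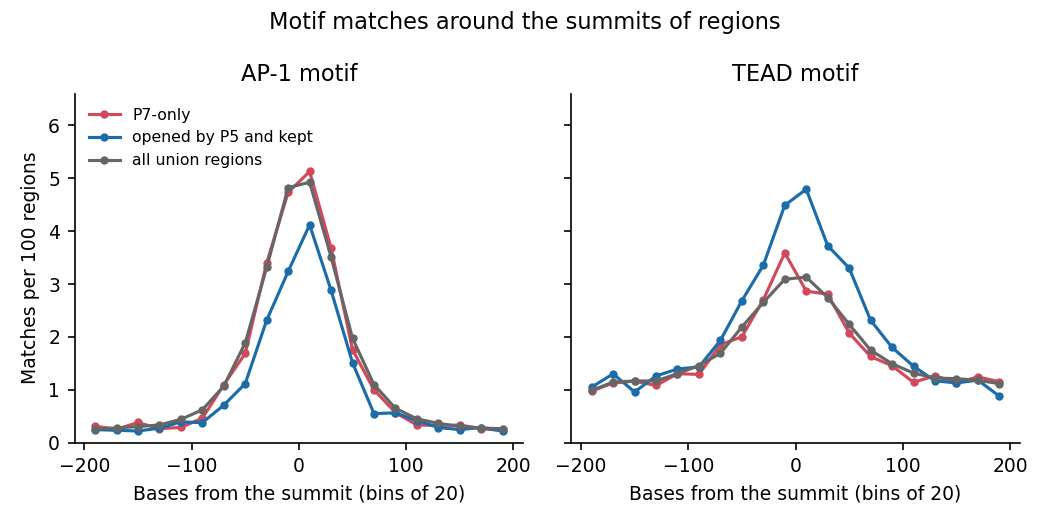
Matches per 100 regions in bins of 20 bases (y axis) by distance from the summit (x axis) for AP-1 (left) and TEAD (right), in P7-only regions (red), regions opened by P5 and kept (blue) and all union regions (grey). The red and grey curves lie close together for both motifs, and the blue curve is lower for AP-1 and higher for TEAD.

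The other motifs were mostly as frequent as elsewhere or rarer. CTCF, an insulator protein that marks loop anchors, had its sequence in 33 P7-only regions (0.385%), against 2.21% of all union regions and 1.90% of P1-only regions. The ETS sequence (CCGGAAG) was in 0.548% against 1.55%, and the E2F sequence (TTCCCGC), typical of promoters of cell-cycle genes, in 0.338% against 0.851%. The sequence of EBF factors was in 0.326% against 1.09% of all regions and 3.16% of P5-only regions. RUNX was in 7.67%, against 9.41% of all regions and 14.9% of P5-only regions. Outside promoters CTCF was still in 0.378% of P7-only against 2.28% of all regions, and the same low share was found in regions opened by P5 and kept (0.290%). CEBP (12.1% against 10.9%) and STAT (7.92% against 7.01%) had slightly higher shares than over all regions. By P7 sample, the CEBP share of P7-only regions was 14.6%, 12.2% and 10.4%, against 11.9%, 11.1% and 10.6% of all peaks, and so was not higher in replicate 3. No P7-only region held the p53 sequence, which was in 37 of all 306843 regions. Peaks of P7-only regions were weak, and the part of strength in the shares of these motifs was not tested.

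RNA was used as an independent measure of the genes at these regions, since the rule used no RNA. The cells were checked by markers first. Summed CPM (counts scaled to a common library size) of 12 fibroblast markers were 23789 to 25664 at P1 and 36448 to 39310 at P7. Most of that sum was RNA of the collagen genes Col1a1, Col1a2 and Col3a1 (66.4% at P1 and 76.8% at P7), and the mean sum of the other markers was 8307 CPM and 8819 CPM. Of the 12 markers 2 were higher at P7 than at P1 (Col3a1 and Thy1) and 3 lower (Pdgfra, Dcn and Lum), with a median log2 fold change of -0.08. The P1 libraries also held RNA of other skin cells: the summed CPM of 14 macrophage and leukocyte markers was 353 to 544 at P1, 45.2 to 53.8 at P5 and 115 to 132 at P7, that of 8 endothelial markers 177 to 190, 15.95 to 17.9 and 10.8 to 13.9, that of 10 keratinocyte markers 65.9 to 416, 2.97 to 5.83 and 6.84 to 11.2, and that of 10 skeletal muscle markers 159 to 257, 30.3 to 57.2 and 39.2 to 110. Of the tested markers, 12 of 14, 8 of 8, 6 of 8 and 7 of 8 were lower at P7 than at P1. In such bulk samples fewer cells of a type and less RNA per cell cannot be told apart, and their part in the comparisons with P1 was not tested. Each gene was tested at P7 against P5 and at P7 against P1 with edgeR over 13442 genes, and a call required both an adjusted p under 0.05 and a fold change over 2. The comparisons share the P7 libraries.

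Few genes had a P7-only region at a start site. Within 1000 bases lay 120 genes, of which 39 passed the filter on low counts. At P7 against P5, 4 of these 39 were called (10.3%), 2 higher and 2 lower, where 3.47% of all genes were called (1.19% higher and 2.28% lower). At P7 against P1, 12 were called (30.8%), 6 higher and 6 lower, where 21.4% of all genes were called (8.1% higher and 13.3% lower). With at least 10 counts in every library, edgeR called none of the 27 such genes then tested at P7 against P5 (6 at an unadjusted p under 0.05) and 2 at P7 against P1, and with the 2 passages fitted alone 2 were called at P7 against P5. DESeq2 called 4 and 12 of the 39. The median log2 fold change of the 39 was -0.02 against P5 and 0.07 against P1, beside -0.01 and -0.01 over all genes tested. Without P7 replicate 1 or replicate 4, 2 genes were called against P5. Shares above those of all genes were not particular to P7-only regions. Within 1000 bases of regions opened by P5 and kept, 3 of 33 tested genes (9.09%) were called against P5 and 13 (39.4%) against P1. For P1-only regions, 3 of 60 (5%) and 19 (31.7%) were called.

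The gene with the clearest values was Cilp, which encodes a matrix protein of cartilage that binds growth factors. Its P7-only region (chr9:65264889-65265237) had its summit 68 bases from the start site and was present in 2 of 3 P7 samples, 3.69-fold over background in replicate 1 and 2.19-fold in replicate 3. Cilp RNA was 41.2, 40.8, 35.8 and 40.3 CPM in the P1 libraries, 4.65, 5.32, 4.59 and 2.85 CPM at P5 and 1.98, 0.540, 1.38 and 1.04 CPM at P7. All P7 libraries were below all P5 libraries, and these below all P1 libraries, so RNA was lowest at the passage where the region was open. The log2 fold change was -1.81 (SE 0.36, adjusted p = 0.00164) against P5 and -4.99 (SE 0.32, adjusted p = 9.84e-11) against P1.

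The other 3 genes called against P5 had an average below 1 CPM, so they fell outside the rule for named genes, and they are given because they complete the count. Pilra, a receptor of myeloid cells, had 0.194, 0.0691, 0.388 and 0.265 CPM at P5 and 0.916, 1.85, 0.845 and 0.965 CPM at P7 (log2 fold change 2.27, SE 0.54, adjusted p = 0.00635). It overlaps Zcwpw1, and the counting ignored strand, so reads of both genes cannot be told apart. Clec2e, a C-type lectin gene with a region in all 3 P7 samples 75 bases from its start site, had 0.517, 0.415, 0.323 and 0.265 CPM at P5 and 2.21, 0.540, 0.845 and 2.52 CPM at P7 (log2 fold change 1.99, SE 0.54, adjusted p = 0.0156). Dpysl5, a gene of neuronal cytoskeleton regulation, fell from 1.10, 0.622, 0.840 and 0.596 CPM to 0.229, 0.463, 0.154 and 0.297 CPM (log2 fold change -1.44, SE 0.46, adjusted p = 0.038). The P5 and P7 libraries did not overlap in these 3 genes, but the genes were picked by their calls, so this adds nothing to the calls. For Clec2e the highest P5 library had 0.517 CPM and the lowest P7 library 0.540 CPM. Macrophage and leukocyte markers moved as well between these passages, with 2 of 14 higher (Csf1r and Cd53) and 1 lower (Cd74), and the part of such cells in Pilra and Clec2e was not tested.

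Genes called only against P1 included Dnaic2, a dynein arm gene of cilia, with a region in all 3 P7 samples 507 bases from its start site. Its RNA was 0.137, 0.136, 0.273 and 0.186 CPM at P1 and 2.06, 1.93, 1.92 and 1.86 CPM at P7 (log2 fold change 3.35, SE 0.44), but already 0.775, 1.94, 1.74 and 1.46 CPM at P5, and P5 and P7 overlapped. Plekhb1 (log2 fold change 1.64, SE 0.27), Chadl (1.47, SE 0.49) and the transcription factor gene Atoh8 (1.02, SE 0.21) were also higher at P7 than at P1, and their mean levels at P5 were 8.45, 0.990 and 13.9 CPM against 8.27, 1.45 and 12.1 CPM at P7. Chadl overlaps L3mbtl2, and Atoh8 was not called without P1 replicate 1 or 3 or P7 replicate 2 or 3 (0.91 to 0.99). Lower than at P1 were Spns2, a transporter of sphingosine 1-phosphate that overlaps Mybbp1a (-3.80, SE 0.36), and Sox5, a transcription factor of cartilage (-2.07, SE 0.34). The class I histocompatibility gene H2-K1, whose region in all 3 P7 samples held AP-1, had a mean of 238 ± 21.7 CPM at P1, 163 ± 28.3 at P5 and 114 ± 15.4 at P7 (SD, n = 4), with log2 fold changes of -1.06 against P1 and -0.51 against P5 (SE 0.12 for both), the latter with an adjusted p of 0.00472 but under the fold threshold. Without P7 replicate 3 the value against P1 was -0.99, also under it. H2-K1 is 1 of a family of near-identical genes, so its counts are uncertain. Gja5, a connexin gene of endothelium, had 1.71 to 2.31 CPM at P1 and was at 0 in all 4 P7 libraries, where 0 counts allow up to 0.231 CPM. None of Dnaic2, Plekhb1, Chadl, Atoh8, Spns2, Sox5, H2-K1 and Gja5 was called against P5.

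At larger distances the shares of called genes were nearer to those of all genes. Within 2500 bases lay 240 tested genes, of which 10 (4.17%) were called against P5 (3 higher, 7 lower) and 60 (25.0%) against P1 (32 higher, 28 lower). In this comparison with P1, 13.3% of the genes within 2500 bases were higher and 11.7% lower, against 8.10% and 13.3% of all genes, and the difference was not tested. Within 50000 bases lay 4820 tested genes, 35.9% of those with a start site, of which 162 (3.36%) were called against P5 (62 higher, 100 lower) and 1023 (21.2%) against P1 (430 higher, 593 lower). Their median log2 fold change was -0.00 against P5 and 0.02 against P1. Around the 1931 regions with AP-1, 51 of 1241 tested genes (4.11%) were called against P5 and 271 (21.8%) against P1. Against a background of 3.47% and 21.4%, these shares at 50000 bases differed little from those of all genes.

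The number of regions near a gene was also set beside its RNA. Of genes with 0, 1, 2 and 3 to 4 P7-only regions within 50000 bases, 1.14%, 1.34%, 1.08% and 1.30% were higher at P7 than at P5. Against P1 the shares that were higher were 7.64%, 8.48%, 9.48% and 13.4%, and the shares that were lower 13.9%, 12.5%, 12.3% and 9.09%. The last of these groups was small, with 231 genes. A further 6 genes had 5 or more regions, of which 0 were called against P5, and 1 was higher and 1 lower than at P1 (median log2 fold change -0.11). Among the larger groups, genes with more P7-only regions also had more regions of any kind, with a median of 19, 20, 21 and 23. The part of that difference in the shares was not tested.

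Of the genes with the most regions near them, 7 are described. None of the 7 was called against P5 by edgeR or DESeq2, where edgeR called 3.47% of all genes. An unadjusted p under 0.05 was found for 3 of them (Dlg1, Rnf144b and Tmcc3). Dlg1, a scaffold gene of cell polarity, had 6 of its 47 regions within 50000 bases P7-only. Its RNA was 119, 129, 117 and 136 CPM at P1, 187, 200, 164 and 162 CPM at P5 and 193, 204, 231 and 235 CPM at P7, with overlap between P5 and P7 and none with P1 (log2 fold change 0.28, SE 0.10, against P5 and 0.78, SE 0.10, against P1). Denr, Dtna, Rnf144b, Tmcc3 and Zfp143 had 5 each, and 2310009A05Rik had 4. Dtna, a gene of the dystrophin complex, was higher at P7 than at P1 (log2 fold change 1.70, SE 0.23), with 39.4 CPM in P7 replicate 4 and 17.5 to 20.8 CPM in the other P7 libraries, and Tmcc3 (-1.01, SE 0.13) was lower. Tmcc3 lay at the fold threshold, with -0.86 to -0.98 and no call without P1 replicate 1 or 2 or without P7 replicate 1 or 3. Denr, a translation reinitiation factor, had a log2 fold change of -0.18 (SE 0.11) against P1.

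Genes of 14 lists, of cell type markers and of senescence functions, were followed where a P7-only region lay within 50000 bases of a start site. Such a region lay near 66 list genes, 62 of them tested, with 83 regions in all, of which 13 held AP-1, 14 held TEAD and 16 were present in all 3 P7 samples. Against P5, 5 of the 62 were higher and 2 lower (11.3% called), against 3.47% of all genes and 8 of the 103 tested list genes with no such region (7.77%). Against P1, 15 were higher and 18 lower (53.2% called), against 21.4% of all genes and 53.4% of the 103 list genes with no such region. List genes were thus called more often than all genes with or without a region nearby. The 5 genes higher than at P5 were Ptgs2, Ereg, Ankrd1, Cdkn2a and Myh11.

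Ptgs2, which encodes the cyclooxygenase that makes prostaglandins in inflammation, had the largest log2 fold change of the 5 against P5. Its RNA was 64.3, 67.7, 48.3 and 35.9 CPM at P5 and 215, 302, 297 and 211 CPM at P7, and 14.9 to 26.9 CPM at P1, with no overlap between these passages. The log2 fold change was 2.24 (SE 0.20, adjusted p = 8.78e-07) against P5 and 3.70 (SE 0.22, adjusted p = 3.1e-11) against P1. Its P7-only region, with the AP-1 sequence printed above, was weak, at 1.89-fold and 2.22-fold over background in P7 replicates 1 and 2, with no peak in replicate 3.

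Ereg encodes epiregulin, a ligand of the epidermal growth factor receptor. Its RNA was 8.40, 7.95, 8.46 and 7.08 CPM at P5 and 19.0, 28.5, 26.0 and 23.0 CPM at P7 (log2 fold change 1.60, SE 0.17, adjusted p = 3.97e-06), after 4.46 to 8.34 CPM at P1. It had 2 regions, 19287 and 20083 bases from the start site. The nearer one, with no match to the 19 motifs, was in P7 replicates 2 and 3 at 3.76-fold and 2.73-fold. The farther one was in all 3 P7 samples at 2.24-fold, 2.04-fold and 2.03-fold, among the weakest peaks listed, with a percentile of 0.341 in replicate 3. Both regions also lay within 50000 bases of Areg, the gene of another ligand of the same receptor.

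Ankrd1, a target gene of YAP and TEAD, had 13.1, 11.8, 10.4 and 7.15 CPM at P5 and 22.7, 28.8, 24.5 and 22.6 CPM at P7 (log2 fold change 1.22, SE 0.15, adjusted p = 1.95e-05). At P1 it had 7.93 to 11.8 CPM, which overlapped P5. No TEAD match was within 100 bases of the summit of its region, which was present in P7 replicates 2 and 3 at 3.76-fold and 3.20-fold.

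Cdkn2a, the gene of the cell-cycle inhibitors p16 and p19, was higher at P7 than at both P5 and P1. Its RNA was 7.12, 8.22, 7.25 and 9.65 CPM at P1, 64.4, 72.7, 102 and 166 CPM at P5 and 269, 224, 179 and 225 CPM at P7, and the highest P5 library stayed below the lowest P7 library. The log2 fold change was 1.15 (SE 0.21, adjusted p = 0.000957) against P5 and 4.79 (SE 0.26, adjusted p = 1.26e-11) against P1. Without P5 replicate 1, the lowest P5 library, the log2 fold change against P5 was 0.98 and under the fold threshold. Its region was present in all 3 P7 samples at 3.03-fold, 5.49-fold and 4.81-fold, and repeats took 84.6% of the bases printed above. The counts of p16 and p19 transcripts were not separated.

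Myh11, the smooth muscle myosin heavy chain, had 15.9, 23.2, 12.9 and 25.6 CPM at P5 and 32.4, 78.5, 58.0 and 61.9 CPM at P7 (log2 fold change 1.58, SE 0.31, adjusted p = 0.00144). At P1 it had 33.8 to 43.2 CPM, and the log2 fold change against P1 was 0.61 (SE 0.29, adjusted p = 0.0773), and the P5 libraries lay below all P1 and all P7 libraries. Its region stood 2.90-fold, 3.45-fold and 3.64-fold over background in the 3 P7 samples.

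**Figure D5:**
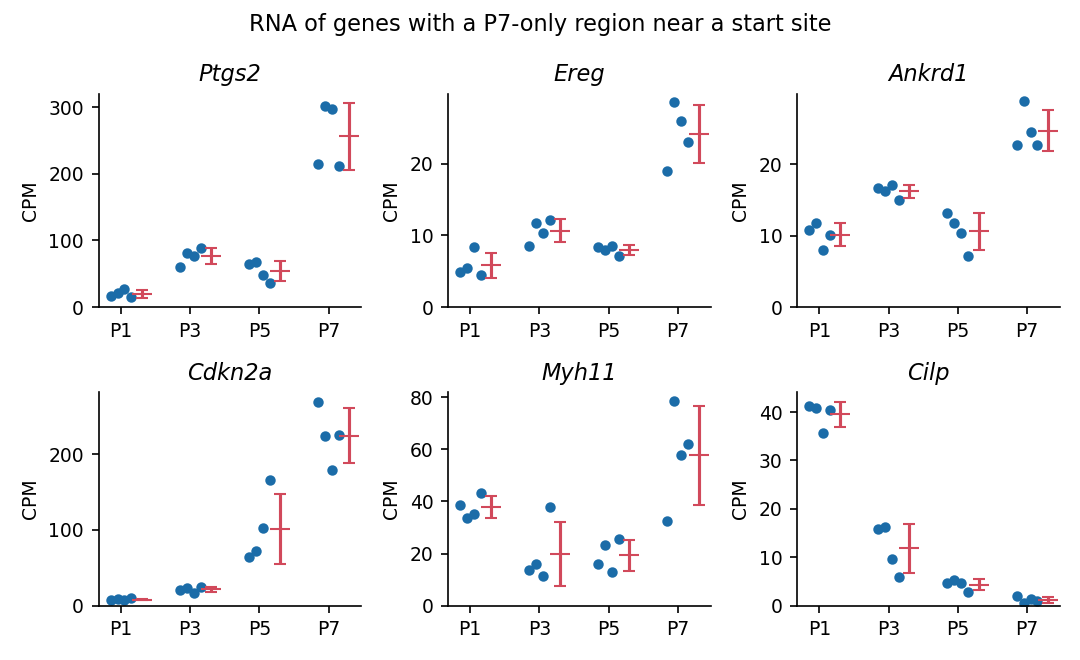
RNA (CPM after TMM scaling, y axis from 0) of 6 genes with a P7-only region near a start site in each library of P1, P3, P5 and P7 (x axis), with the mean and SD (n = 4 libraries). Ptgs2, Ereg, Ankrd1, Cdkn2a and Myh11 are higher in all 4 P7 libraries than in any P5 library, and Cilp is lower.

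The 2 list genes lower at P7 than at P5 were endothelial markers at very low levels. Pecam1, whose region lay 1470 bases from a start site in all 3 P7 samples, had 0.258, 1.25, 0.646 and 1.59 CPM at P5 and 0.0763, 0.386, 0 and 0.594 CPM at P7, which overlapped (log2 fold change -1.77, SE 0.59, adjusted p = 0.0453). The call was lost without P5 replicate 2 or 4 or without P7 replicate 1, 2 or 3, with adjusted p between 0.0626 and 0.133. At P1 it had 28.8 to 35.3 CPM. Cldn5, a tight junction gene, had 4.89 to 8.15 CPM at P1, at most 0.463 CPM at P5 and 0 in all 4 P7 libraries, where 0 counts allow up to 0.231 CPM per library, so no fold change is given.

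Among the factors whose sequences were searched, the genes of AP-1 subunits and of TEAD factors were followed. Of 13 AP-1 subunit genes 7 had a P7-only region within 50000 bases, and the 5 of these that were tested, Jun, Junb, Jund, Fosl2 and Atf3, had log2 fold changes of 0.04 to 0.28 against P5 and -0.06 to 0.93 against P1. Neither edgeR nor DESeq2 called any of the 5, with 0 at an unadjusted p under 0.05 against P5 and 3 against P1. Over all 11 tested genes of that list, none was called against P5 by either tool, and 4 had an unadjusted p under 0.05 (Fos, Fosl1, Maff and Mafk). Of all genes 3.47% were called against P5, so 0 calls among so few genes does not show a lack of change. Mafk was higher and Batf lower than at P1, where 21.4% of all genes were called. Of the regions near Fosl2, the one 32202 bases from a start site held AP-1, and the one 47661 bases away held TEAD and no AP-1. The region near Jun, 5277 bases away, held CRE (TGACGTCA) and TEAD. Of 15 genes of TEAD factors and Hippo signalling 4 had a region nearby, Ankrd1, Amotl2, Lats2 and Vgll4, and Ankrd1 was the only 1 of the 15 called against P5. Amotl2, which binds YAP, was higher than at P1 (log2 fold change 1.16, SE 0.11) and had a log2 fold change of 0.25 against P5. None of the 4 TEAD genes had a P7-only region within 50000 bases.

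Other list genes with a P7-only region nearby were called against P1 alone. Among matrix proteases and their inhibitors, of whose 15 genes 5 were higher and 3 lower, 4 of the 7 with a region nearby were higher (over all genes 8.10% were), Timp1 (1.14, SE 0.11), Timp3 (2.67, SE 0.15), Adamts1 (1.52, SE 0.09) and Adamts5 (2.02, SE 0.11), and 1 was lower, the macrophage protease gene Mmp12 (-7.33, SE 0.37). Timp1 and Timp3 lie inside Syn1 and Syn3, so their counts may include reads of those genes. Among inhibitors of cyclin-dependent kinases, Cdkn1a (p21) was higher (1.53, SE 0.11) and Cdkn2d lower (-1.07, SE 0.16). Of the 4 such inhibitors with no region nearby, 1 was higher and 1 lower. Of 6 p53 targets the antiproliferative gene Btg2 (1.47, SE 0.12) and Ccng1, a cyclin (1.49, SE 0.11), were higher. With no region nearby, 3 of 12 p53 targets were higher, and over all genes 8.10% were. The myosin light chain gene Myl9 (1.16, SE 0.18) was higher, with 349 CPM on average at P5 and 617 CPM at P7, and so was the glial gene S100b (1.42, SE 0.28). Cdkn2d had -0.99 and no call without P1 replicate 3 or P7 replicate 2. All values in these sentences are log2 fold changes at P7 against P1.

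Lower at P7 than at P1 were also 3 of 13 tested secretory genes near a region, the alarmin Il33 (-1.75, SE 0.26), the adhesion gene Icam1 (-1.10, SE 0.19) and the stress cytokine Gdf15 (-1.02, SE 0.17), and the fibroblast proteoglycans Dcn (-1.81, SE 0.19) and Lum (-1.96, SE 0.26). The adipocyte regulator Pparg (-1.02, SE 0.16) was lower likewise. Of all genes 13.3% were lower, and of the 14 tested secretory genes with no region nearby 3 were. Gdf15 lost its call without P1 replicate 4 (-0.95) or P7 replicate 3 (-0.89), and Pparg without P1 replicate 2 or P7 replicate 2 or 4 (-0.93 to -0.95). The remaining lower genes were markers of other cell types, namely Pecam1, Cldn5, Cd68, Tyrobp, H2-Eb1, Trp63, Krt14, Krt17, Myog and Myod1. Krt14, Myog and Myod1 had mean levels of 54.2, 7.17 and 3.05 CPM at P1, and these 3 genes and Krt17 were at 0 in all P7 libraries. They had P7-only regions within 50000 bases and RNA at 0 at P7, where 0 counts allow up to 0.231 CPM, and thus a P7-only region at such a distance was also found near genes without detected RNA.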

How the data were processed

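ATAC-seq reads were processed by the authors with the pipeline of the Kundaje lab (Bowtie2, Picard, MACS2), with peaks called in each sample on its own. Deposited values of a peak are its fold enrichment over background (a ratio), and its -log10 p and -log10 q, all from MACS2 and with no -log10 p under 2. RNA reads were trimmed with Trimmomatic 0.39, aligned to mm10 with HISAT2 2.2.1 and counted per gene with HTSeq 0.12.4 by the authors, who deposited raw counts of 24984 genes and ignored strand. Genes that overlap another gene therefore have uncertain counts. Groups and replicate numbers came from the sample labels. RRBS and the libraries of overexpression and knockdown were not analysed here.

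Peaks of 1 sample that overlapped were merged, then merged across the 13 samples into union regions with Python 3.11.15 and pandas 2.3.3. The summit of a region was that of its strongest peak. Bases within 100 of the summit were read with pysam 0.24.0 from GRCm38 (RefSeq) and searched for 19 consensus sequences on both strands. Overlapping matches each counted, and those of TEAD and AP-1 or of AP-1 and CRE can share bases. Gene symbols were matched to RefSeq, 24379 by current and 434 by older symbol.

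All 16 RNA libraries were fitted together with edgeR 4.0.16 in R 4.3.3 (filterByExpr, TMM, quasi-likelihood test, Benjamini-Hochberg adjustment over 13442 genes). CPM are TMM-scaled. The fit was also tested on simulated counts. SE are of the log2 fold change, and 0 counts were taken to allow up to 3 counts, for counting error only.

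Named were the 12 strongest regions, genes called with a region within 1000 bases of a start site and an average log2 CPM of at least 0, the 8 genes with the most regions, list genes with a region within 50000 bases, and the AP-1 and TEAD lists. Results of 2 genes that met this rule are not reported here, though counts over lists include them. The members and lists were chosen with earlier results of these data known. Alternatives were other sets of peaks, windows and distances, DESeq2 1.42.0, its size factors, other filters, the replicate block, fits of 2 passages and each sample left out in turn.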

Additional observations from a re-analysis of the deposited data

Results flagged for a closer look

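In groups of 4 RNA libraries, the highest or lowest library of some genes near a P7-only region stood far from the others. The groups were of a gene and a passage, together with the peak numbers of the 4 P1 ATAC-seq samples. Of 139 groups, 12 were found in this way, where chance gives about 1 in 20 (6.95 groups). In 4 of the 12 the other 3 libraries were at 0, so that any count in 1 library meets the criterion, which leaves 8 groups. P7 replicate 4 was high for Dtna, with 39.4 CPM (17.5 to 20.8 in the others). Tyrobp, with 0.594 CPM in P7 replicate 4 and 0 in the others, was 1 of the 4 set aside. P7 replicate 3 was low for Gdf15, with 10.1 CPM (14.3 to 15.1). At P5, replicate 1 was low for Lum, with 6.07 CPM (9.40 to 9.68), and high for Pparg, with 14.5 CPM (11.4 in each of the others). Krt14 (0.129 CPM, replicate 3), Myod1 (0.0646 CPM, replicate 3) and Myog (0.0646 CPM, replicate 1) were each found in 1 P5 library and at 0 in the other 3. At P1, replicate 3 was high for the keratin gene Krt14, with 134 CPM (17.3 to 33.4), and for Cdkn2d, with 24.4 CPM (19.7 to 20.05), and low for Cilp, with 35.8 CPM (40.3 to 41.2). Replicate 4 was low for Cd68, with 27.6 CPM (40.2 to 42.1).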

How the results depend on the processing

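With equal numbers of peaks there were 2498 P7-only regions, with AP-1 in 27.0%, TEAD in 22.7% and a start site within 1000 bases in 0.881%. Only 610 of them were P7-only with all listed peaks too. With -log10 q of at least 5, AP-1 was in 24.6% of 8165 P7-only regions and TEAD in 20.5%. Over all union regions at that cutoff the shares were nearly the same, at 24.4% and 20.4%. Only 3593 of the P7-only regions found with all listed peaks (41.9%) were among these 8165, with AP-1 in 26.1% and TEAD in 20.5%. The 1994 regions in all 3 P7 samples had AP-1 in 24.4%, TEAD in 21.01% and start sites in 1.20%. With no earlier peak within 500 bases, TEAD was in 20.4% and start sites in 1.09%. Within 50 bases AP-1 was in 18.1% and TEAD in 12.9%, against 17.5% and 12.5% of all regions. Over the whole region the shares were 24.6% and 25.5%, below the 27.9% and 34.6% of all regions, which were longer (median 423 against 286 bases), whereas within 100 bases they were slightly above. Outside promoters, the shares within 100 bases were 22.6% and 20.1%, slightly below the 23.1% and 20.2% of all regions. Of all P7-only regions 4.94% lay within 2500 bases of a start site. Without 1 sample each, the regions numbered 3072 (P7 replicate 2) to 11616 (P5 replicate 2), with AP-1 in 21.2% to 24.2%, TEAD in 19.5% to 20.9% and start sites in 1.23% to 1.46%.

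With at least 10 counts in every library, 296 genes were called against P5 and 1796 against P1, and of those with a region at the start site 0 and 2. Of the latter genes, 2 were called against P5 with 2 passages fitted, 21 against P1 with no filter, 1 and 4 with regions in all 3 P7 samples, 10 and 60 within 2500 bases, 162 and 1023 within 50000 bases, and 2 to 4 and 12 to 18 without 1 library. The replicate block gave 474 and 2892 calls, 4 and 13 of them at start sites. Same-numbered libraries correlated over 0.1 in 11 of 24 pairs (r of -0.262 to 0.276), so the numbers were not taken to pair the libraries. Of the P7 libraries, 1 of 4 correlated best with its own number at P5 and 4 of 4 at P1. Of values of single genes, 901 kept direction and side of the threshold, 26 lost the call and 13 changed sign. The latter were uncalled throughout, namely Denr against P5 (0.0024 with 2 passages fitted, -0.14 to 0.060 without 1 library), Plekhb1 (-0.38 to 0.17), Sox5 (-0.68 to 0.010) and 2310009A05Rik (-0.027 to 0.38) against P5, and Rnf144b against P1 (-0.12 to 0.14). Read depth of the peak lists is unknown, which limits what absence of a peak shows.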
